A study of Rattus norvegicus with 7 samples.

Results

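Arginine is made from citrulline in a pair of steps. Argininosuccinate synthetase (Ass1) joins citrulline to aspartate, and argininosuccinate lyase (Asl) splits the product into arginine and fumarate. Arginase then cleaves arginine into ornithine and urea, and in tissues outside the liver the mitochondrial form, arginase 2 (Arg2), often does this. Cells also import arginine through the cationic amino acid transporter CAT-1 (Slc7a1), and urea leaves or enters through the channel UT-B (Slc14a1), known from red blood cells and the kidney. The lens has no blood supply and takes its amino acids from the fluid of the eye.

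The 5 genes Ass1, Asl, Arg2, Slc14a1 and Slc7a1 were followed among 18166 named genes. They were chosen by gene symbol, and selected on these same arrays in the sense that their values were already known, so their levels and differences are given as a description, with no test. Each was measured by 1 transcript cluster, a group of probes summarised as 1 value, and each of these clusters carried a single gene symbol.

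Whole-lens total RNA was hybridised at 7 ages, each to its own array of the type GeneChip Rat Gene 2.0 ST. All lenses came from ICR/Ihr rats, an inbred strain with hereditary cataract, and per the methods male lenses were used for arrays. The study asked which transcripts change as lens opacity progresses. Lenses without cataracts were 2 and 4 weeks old (2 arrays), lenses with cortical opacity 8 and 10 weeks (2 arrays), the lens sample with posterior subcapsular opacity 12 weeks (1 array), and lenses with nuclear opacity 14 and 18 weeks (2 arrays). No treatment is given in the labels, and all groups share the strain and its cataract background. No array of a rat strain without cataract was analysed here.

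Stage and age ran together, so their effects cannot be told apart. The arrays of a stage also differed in age, and the methods describe lenses extracted from euthanized rats, so different ages mean different animals. P-values measure only the spread between these arrays, in which age, animal and technical differences are mixed. Values are log2 RMA signals, a normalised hybridization signal in which 1 unit is a doubling and low values are mostly background. A gene entered the tests if any array showed it at 5 or more (5168 genes), and the other 12998 are called dim. Between 4146 and 4595 named genes reached that value on an array. With so few arrays, every value has limited precision. Markers of the lens were present on all arrays. Of the lens epithelium markers 6 of 6 reached 5, with a log2 summed level of 13.27 to 13.35. So did all 6 measured of 10 listed lens fibre markers, with 14.52 to 14.70. The epithelium sum lay close to the level of Cryab alone, 13.17 to 13.28. From the youngest to the oldest array Gja1 of the epithelium list fell from 8.13 to 6.60 and Col4a3 rose from 6.11 to 6.77. In the fibre list Lgsn rose from 9.83 to 12.28 and Mip fell from 12.80 to 12.43 between the same arrays. The sums therefore do not show that the single markers, or the parts of epithelium and fibres, stayed constant.

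The promoter windows of Ass1 and Slc7a1 are shown because these genes had the highest and the lowest differences of the 5 genes from lenses without cataracts. Each window runs from 250 bases before to 50 bases after the start site in RefSeq, build GRCr8, and is written 5′ to 3′ on the strand of the gene. The Ass1 window is chr3:35149480-35149779 on the plus strand, and the Slc7a1 window is chr12:11664238-11664537 on the plus strand. Capitals mark letters that match one of the motifs searched on both strands, and lower case marks all other bases.
Ass1: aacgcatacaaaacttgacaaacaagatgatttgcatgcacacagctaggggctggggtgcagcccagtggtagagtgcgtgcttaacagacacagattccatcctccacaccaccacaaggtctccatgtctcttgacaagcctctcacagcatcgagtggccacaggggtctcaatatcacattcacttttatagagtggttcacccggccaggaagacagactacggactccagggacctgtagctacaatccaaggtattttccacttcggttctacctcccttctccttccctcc
Slc7a1: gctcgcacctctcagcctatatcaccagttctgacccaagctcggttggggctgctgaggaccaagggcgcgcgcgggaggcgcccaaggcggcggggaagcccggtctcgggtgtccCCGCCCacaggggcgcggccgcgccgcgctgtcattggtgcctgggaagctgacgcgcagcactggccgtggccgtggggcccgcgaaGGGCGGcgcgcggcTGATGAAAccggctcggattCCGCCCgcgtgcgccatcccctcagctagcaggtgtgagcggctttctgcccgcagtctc

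The motifs were the GC box (GGGCGG), the E-box (CACGTG), both forms of an amino acid response element (TGATGCAA and TGATGAAA), the cyclic AMP response element (TGACGTCA) and the AP-1 element (TGACTCA). No matches overlapped. The Ass1 window held none of these letters, and its GC content was 51.0%, against a median of 51.7% over 33469 promoters. Its start site lies 4965 bases inside the outer border of the annotated gene, so that another start of the gene may have a different window. The Slc7a1 window held 3 GC boxes, with first letters at -132, -44 and -10 from the start site, and TGATGAAA at -30 on the strand of the gene. A GC box was found in 33.1% of all promoters and TGATGAAA in 1.13%. With a GC content of 72.0%, the Slc7a1 window was richer in G and C than 94.1% of promoters.

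The other windows are described without their letters. Asl had 1 GC box, at -249, in the window chr12:32295658-32295957 on the plus strand. Slc14a1 had no match in chr18:73864594-73864893 on the minus strand, and its start site lies 19282 bases inside the annotated gene. The other motifs occurred in 6.42% (CACGTG), 0.795% (TGATGCAA), 1.83% (TGACGTCA) and 4.63% (TGACTCA) of promoters. Arg2 is named only. A match of letters is a description and not a binding site.

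Ass1, the enzyme that limits the rate of arginine synthesis from citrulline, was far higher in every opaque lens than in both clear ones. Its log2 level was 7.42 at 2 weeks and 8.02 at 4 weeks. It was 9.68 at 8 weeks and 10.27 at 10 weeks, the stage of cortical opacity. At 12 weeks it was 10.37, and at 14 and 18 weeks it was 10.42 and 10.17. The lowest opaque lens thus lay above the highest clear lens, and the levels from 10 weeks on formed a plateau.

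Most of the range of Ass1 fell before 10 weeks. The log2 step was 0.60 between 2 and 4 weeks, 1.65 between 4 and 8 weeks and 0.59 between 8 and 10 weeks. The step of 1.65, which is 3.15-fold on the signal scale, was the step of rank 3 upwards among the 5168 tested genes in that interval. After 10 weeks the steps were small, with 0.09, 0.05 and -0.25. The whole range from the 2-week to the 14-week array was 3.0 on the log2 scale, or 7.99-fold, with rank 45 among tested genes. The median range of a tested gene was 0.54.

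In ascending order of Ass1 level the ages were 2, 4, 8, 18, 10, 12 and 14 weeks. The spread expected for a log2 difference of a pair of arrays was 0.40, taken from the arrays within stages. The gaps from 2 to 4, from 4 to 8 and from 8 to 18 weeks were wider than this, and the gaps between 18, 10, 12 and 14 weeks were not. The gap from 2 to 4 weeks lies within a stage and is itself part of this spread. RefSeq lists Ass1-ps1 and Ass1-ps2 as pseudogenes of Ass1. Whether their transcripts share probes with the cluster was not tested, so signal from them cannot be told apart from that of Ass1.

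**Figure D1:**
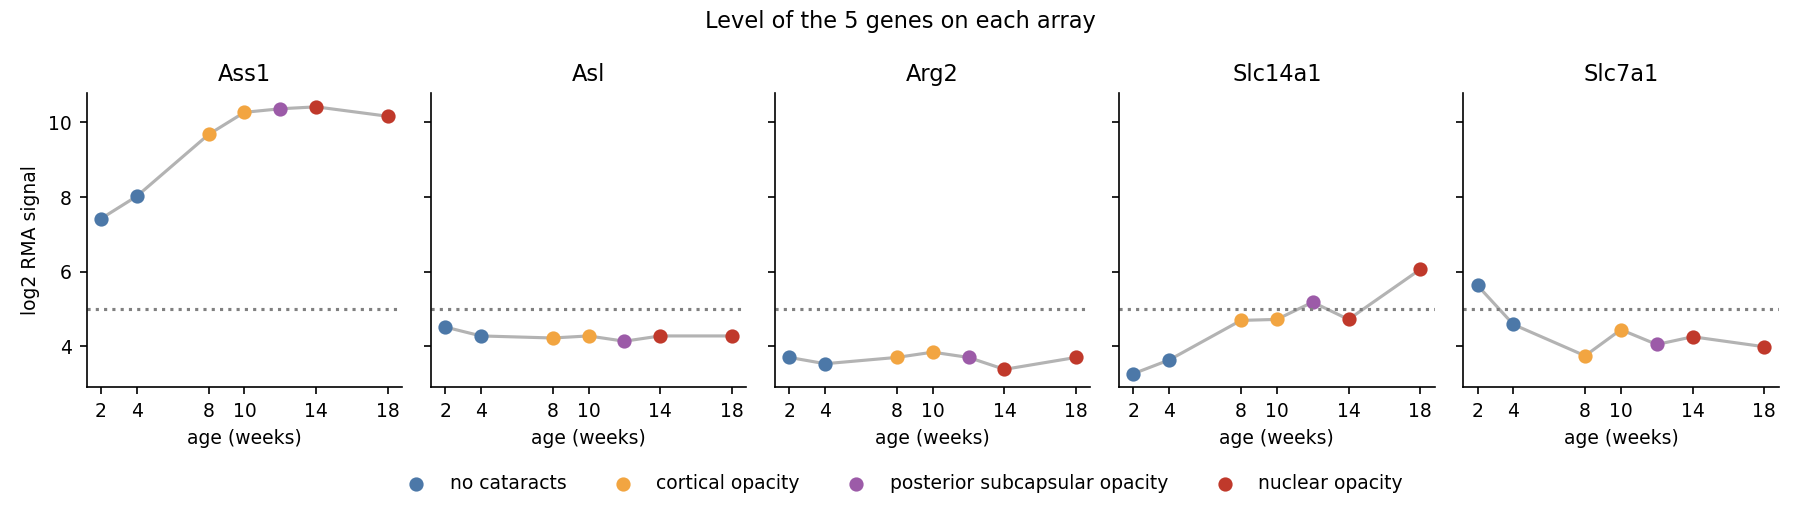
Log2 RMA signal (vertical axis) against age in weeks (horizontal axis) for the 5 genes, with 1 point per array coloured by stage and a dotted line at the log2 value of 5. Ass1 climbs from 7.42 to a plateau above 10, Slc14a1 from 3.26 to 6.06, Slc7a1 drops from 5.63 to between 3.74 and 4.58, and Asl and Arg2 stay under the line.

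Asl, the next enzyme, did not share the profile of Ass1. Its log2 level was 4.52 at 2 weeks, 4.28 at 4 weeks, 4.22 at 8 weeks and 4.28 at 10 weeks. At 12 weeks it was 4.14, and at both 14 and 18 weeks 4.28. No array reached 5, so Asl was dim, and its range of 0.38 was wider than that of 30.6% of dim genes, whose median range was 0.52. The 2-week array was the highest, 0.24 above the next, which was the only gap in its order beyond the expected spread of 0.15. The step from 2 to 4 weeks is itself part of this spread. Asl had the same value on 4 arrays, and ties on at least 3 arrays were found in 53.0% of dim genes and 23.1% of tested genes.

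Arg2, which turns arginine into ornithine and urea in mitochondria, was also dim on every array. Its log2 level was 3.70 at 2, 8, 12 and 18 weeks, 3.53 at 4 weeks, 3.84 at 10 weeks and 3.38 at 14 weeks. The clear and the opaque lenses overlapped in all comparisons, and no gap between neighbouring levels exceeded the expected spread of 0.20. Its range of 0.46 was wider than that of 41.2% of dim genes. At these signals a change of Asl or Arg2 transcripts could be hidden by background, and the arrays do not show that it was absent.

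Slc14a1, the urea channel, started near background and was higher in all opaque lenses. Its log2 level was 3.26 at 2 weeks and 3.63 at 4 weeks, then 4.69 at 8 weeks and 4.72 at 10 weeks. It was 5.18 at 12 weeks, 4.72 at 14 weeks and 6.06 at 18 weeks. The clear and opaque lenses did not overlap, but only the 12- and 18-week arrays reached 5, so the fold changes may understate those of the transcript.

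The profile of Slc14a1 had an early and a late step, and in this it differed from the plateau of Ass1. The log2 step was 1.06 between 4 and 8 weeks and 1.34 between 14 and 18 weeks. The late step was 2.53-fold on the signal scale. Between them the steps were 0.03, 0.46 and -0.46. The whole log2 range was 2.80, or 6.95-fold. No rank among tested genes is given, as Slc14a1 entered the tests only through the 12- and 18-week arrays on which it was highest. In ascending order the ages were 2, 4, 8, 10 with 14, 12 and 18 weeks, and the gaps from 4 to 8 weeks and from 12 to 18 weeks exceeded the expected spread of 0.61.

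As UT-B is abundant in red blood cells, blood markers were read beside it. Of 6 listed blood markers 3 were measured (Hba-a1, Slc4a1 and Ahsp), none reached 5, and the highest value was 2.48. Their log2 summed level was 3.34 to 3.46 in clear lenses, 3.39 to 3.45 with cortical opacity, 3.29 with posterior subcapsular opacity and 3.31 to 3.32 with nuclear opacity. The part of red blood cells in the level of Slc14a1 was not tested beyond these values.

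Slc7a1, the importer of arginine, lysine and ornithine, ran the other way. Its log2 level was 5.63 at 2 weeks and 4.58 at 4 weeks. It was 3.74 at 8 weeks, 4.45 at 10 weeks, 4.05 at 12 weeks, 4.25 at 14 weeks and 3.99 at 18 weeks. Only the 2-week array reached 5, so Slc7a1 entered the tests through its highest array and no rank is given. All opaque lenses lay under both clear ones, but the 10-week level was within 0.14 of the 4-week level. The steps were -1.05 between 2 and 4 weeks, -0.84 between 4 and 8 weeks and 0.70 between 8 and 10 weeks, and the range was 1.89, or 3.70-fold. In ascending order the ages were 8, 18, 12, 14, 10, 4 and 2 weeks, and only the last gap, of 1.05, exceeded the expected spread of 0.57. That gap lies between the arrays of a single stage and is itself part of this spread.

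Signals of ciliary body, zonule and pigment cells were also highest at 2 weeks. All 8 markers of ciliary body and zonule were measured and 7 reached 5. Their log2 summed level was 9.25 to 10.49 in clear lenses, 8.81 at 8 weeks and 7.50 at 10 weeks with cortical opacity, 8.26 with posterior subcapsular opacity and 8.36 to 8.47 with nuclear opacity. All 6 pigment cell markers were measured and 2 reached 5, with summed levels of 8.21 at 2 weeks, 5.51 at 4 weeks and 4.98 to 5.28 in opaque lenses. The highest array of both lists was the 2-week one, as for Slc7a1. Between 8 and 10 weeks the ciliary body and zonule sum dropped to its lowest value, while the level of Slc7a1 was higher at 10 weeks. Endothelial markers had a summed level of 5.92 at 2 weeks and 4.93 to 5.29 afterwards, with none of 5 measured reaching 5, and immune markers 5.64 to 5.86 with none of 8. Markers of corneal and conjunctival epithelium did not peak at 2 weeks. Their summed level was 5.76 there and highest at 12 weeks, with 6.12, and 1 of 4 measured reached 5. The part of these tissues in the levels of Slc7a1 was not tested. In whole lenses, fewer cells of a type and less RNA per cell cannot be told apart.

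The comparisons of stages put these levels into 1 fit, and all comparisons with lenses without cataracts share the same 2 arrays as control. Errors are standard errors (SE) of the limma fit. With cortical opacity (n = 2) Ass1 was higher than without cataracts (n = 2) by 2.25 ± 0.28 on the log2 scale, or 4.77-fold. No tested gene had a larger increase in that comparison. The difference was 2.65 ± 0.35 (6.26-fold) with posterior subcapsular opacity (n = 1) and 2.57 ± 0.28 (5.94-fold) with nuclear opacity (n = 2), of rank 7 among increases both times. Nuclear and cortical opacity differed by 0.32 ± 0.28, and their arrays overlapped.

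For Slc14a1 the log2 difference from no cataracts was 1.26 ± 0.43 (2.39-fold) with cortical opacity. It was 1.73 ± 0.53 (3.33-fold) with posterior subcapsular opacity and 1.94 ± 0.43 (3.84-fold) with nuclear opacity. The nuclear value depended on the array, since it was 1.27 without the 18-week array and 2.61 without the 14-week array. The difference between nuclear and cortical opacity was 0.68 ± 0.43 with overlapping arrays, and 0.01 without the 18-week array. For Slc7a1 the log2 differences from no cataracts were -1.01 ± 0.40, -1.06 ± 0.49 and -0.99 ± 0.40 in the same order of stages, each close to 2.0-fold lower. Without the 2-week array these differences were -0.49, -0.54 and -0.46.

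Asl and Arg2, which were left out of the fit as dim, showed only small differences of means. Asl differed from no cataracts by -0.15, -0.26 and -0.12 in the same order, and by 0.00 in the nuclear comparison without the 2-week array. Arg2 differed by 0.15, 0.08 and -0.08. Ass1, Slc14a1 and Slc7a1 were thus the 3 of the 5 genes whose opaque and clear arrays did not overlap at any stage. The share of all tested genes without such overlap is not given here. No weight is therefore put on its absence, for these genes or for the list genes below. By limma with Benjamini-Hochberg adjustment, 0% of tested genes were called with cortical opacity and 0% with posterior subcapsular opacity, at a threshold of 0.05. With nuclear opacity 6.1% were called, 2.03% higher and 4.06% lower. The values of the 5 genes were known when they were chosen, so nothing is read from these shares about them.

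**Figure D2:**
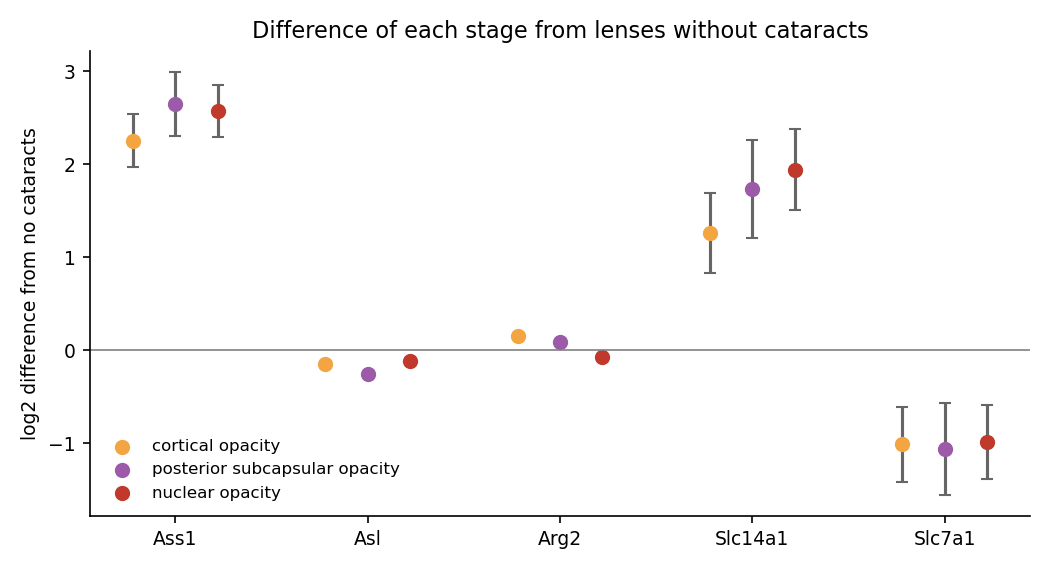
Log2 difference of each stage from lenses without cataracts (vertical axis) for the 5 genes (horizontal axis), with 1 point per stage and bars of 1 standard error of the limma fit where the gene was tested. Ass1 lies at 2.25 to 2.65 and Slc14a1 at 1.26 to 1.94, Slc7a1 lies near -1, and Asl and Arg2, shown without bars, lie within 0.26 of 0.

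Along age the log2 slope per week was 0.19 ± 0.04 (SE, n = 7) for Ass1, of rank 5 among rising slopes, and 0.16 ± 0.02 for Slc14a1. For Slc7a1 it was -0.076 ± 0.029, and -0.026 without the 2-week array. Without the 18-week array the slope of Ass1 was 0.27. The age trend was called in 8.69% of all tested genes, 3.66% higher and 5.03% lower.

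The genes around these enzymes and transporters were taken from 11 lists, which held 105 genes other than the 5. Of these 94 were measured under their names, 41 were tested and 53 were dim. With cortical opacity 0 of 41 were called, and 6 had an unadjusted p under 0.05 by limma, all lower, beside 828 of all tested genes (162 higher, 666 lower). With posterior subcapsular opacity 0 were called and 7 had such a p, all lower, beside 1131 of all (180 higher, 951 lower). With 1 array in that stage, its error was borrowed from the spread within other stages. With nuclear opacity 5 of 41 were called, all lower, beside 6.1% of all tested genes (2.03% higher, 4.06% lower). The called genes included Asns, which reached 5 only in clear lenses. An unadjusted p under 0.05 was found for 12 of the 41 (3 higher, 9 lower), beside 1298 of all (500 higher, 798 lower). The median log2 difference of the 41 genes was -0.10 in that comparison, against -0.05 for all tested genes. Between nuclear and cortical opacity 0.0193% of tested genes were called, 0.0193% higher and 0% lower. None of the 41 was among them, 3 had an unadjusted p under 0.05, and 576 of all did.

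The rest of the urea cycle was dim throughout. Cps1, Otc and Nags, which serve the making of citrulline in liver mitochondria, had highest log2 levels of 2.80, 1.66 and 4.35. Arg1, the liver arginase, reached 2.73, and the ornithine carriers Slc25a15 and Slc25a2 reached 4.72 and 4.09. Thus 0 of 6 could be tested, and Ass1 was the only gene of the cycle that reached 5. The other urea and glycerol channels (Slc14a2, Aqp3, Aqp7 and Aqp9) were dim as well, with a highest level of 3.37 for Aqp3.

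Ass1 consumes aspartate. Of the list of aspartate and fumarate enzymes 8 of 10 tested genes were lower with nuclear opacity and 2 of these passed. Lower values were also more common over all lists, with 29 of 41 genes lower. Over all tested genes the median difference was -0.05, and 4.06% were called lower against 2.03% higher. The counts are therefore not read as a trait of this list. Got1, the cytosolic aspartate aminotransferase, had log2 levels of 6.15 and 6.24 in clear lenses, 6.29 and 5.38 with cortical opacity, 5.39 at 12 weeks, and 4.60 and 4.67 with nuclear opacity. It stayed at the clear level at 8 weeks and was lowest on both nuclear arrays, which lay apart from all others. The log2 difference from no cataracts was -1.56 ± 0.29 (adjusted p = 0.047), and Got1 also fell along age by 0.115 per week (adjusted p = 0.0176).

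Asns, which uses aspartate and glutamine to make asparagine, had a different time course. Its log2 levels were 5.38 and 5.11 in clear lenses, 4.01 and 3.79 with cortical opacity, 4.26 at 12 weeks, and 4.43 and 4.29 with nuclear opacity. The lowest arrays were those of cortical opacity, and no opaque lens reached the clear ones. Its difference was -0.88 ± 0.14 with nuclear opacity (adjusted p = 0.0346), and the larger difference of -1.34 ± 0.14 with cortical opacity did not pass (adjusted p = 0.113). Asns reached 5 only in clear lenses, so it entered the tests through the group where it was highest. Its call is therefore favoured by the floor, and no weight is put on it. Slc1a2, a glutamate and aspartate carrier, had a log2 difference of 2.02 ± 0.56 with nuclear opacity that did not pass (adjusted p = 0.101). Its level was 2.94 and 3.62 in clear lenses, 6.14 on the 14-week array and 3.98 to 4.46 on the other opaque arrays, so that all opaque lenses lay above both clear ones and the 14-week array stood apart. Slc1a2 reached 5 only on the 14-week array and so entered the tests through its highest array.

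Among the other calls were a pair of genes of amino acid transport. Slc38a3, a glutamine carrier, had log2 levels of 8.57 and 8.38 in clear lenses and 7.47 to 7.80 in opaque ones. Slc3a2, the heavy chain that carries several amino acid exchangers to the membrane, had 8.46 and 8.25 in clear lenses and 7.52 to 7.71 in opaque ones. Neither overlapped between clear and opaque lenses, and the opaque levels lay close together. The log2 differences with nuclear opacity were -0.86 ± 0.14 (adjusted p = 0.0338) for Slc38a3 and -0.71 ± 0.12 (adjusted p = 0.0394) for Slc3a2.

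Slc7a2, the cationic transporter CAT-2 and relative of Slc7a1, was the other tested gene of its list. Its log2 level was 8.48 at 2 weeks, 8.21 at 4 weeks and 7.89 to 8.07 in opaque lenses. With nuclear opacity its difference of -0.41 ± 0.12 did not pass (adjusted p = 0.11), while along age it fell by 0.033 per week (adjusted p = 0.0491). The other 9 cationic transport genes were dim, among them Slc7a3 and Slc7a6.

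Of the organic osmolyte list 1 of 4 tested genes was called with nuclear opacity, beside 6.1% of all tested genes. Slc2a1, the glucose transporter that also takes up the oxidised form of vitamin C, had log2 levels of 9.39 and 9.12 in clear lenses and 8.46 to 8.72 in opaque ones. Clear and opaque arrays did not overlap, and the difference with nuclear opacity was -0.75 ± 0.12 (adjusted p = 0.0346), with a fall of 0.055 per week along age (adjusted p = 0.0247). Slc6a6, the taurine transporter, had 6.79 and 6.41 in clear lenses, 6.48 and 6.69 with cortical opacity, 6.88 at 12 weeks and 7.30 and 7.28 with nuclear opacity. Both nuclear arrays were the highest, but its difference of 0.69 ± 0.16 did not pass (adjusted p = 0.0683). Nfat5, the factor that answers to high salt, ranged from 5.60 to 5.88 with a difference of -0.08 ± 0.10.

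**Figure D3:**
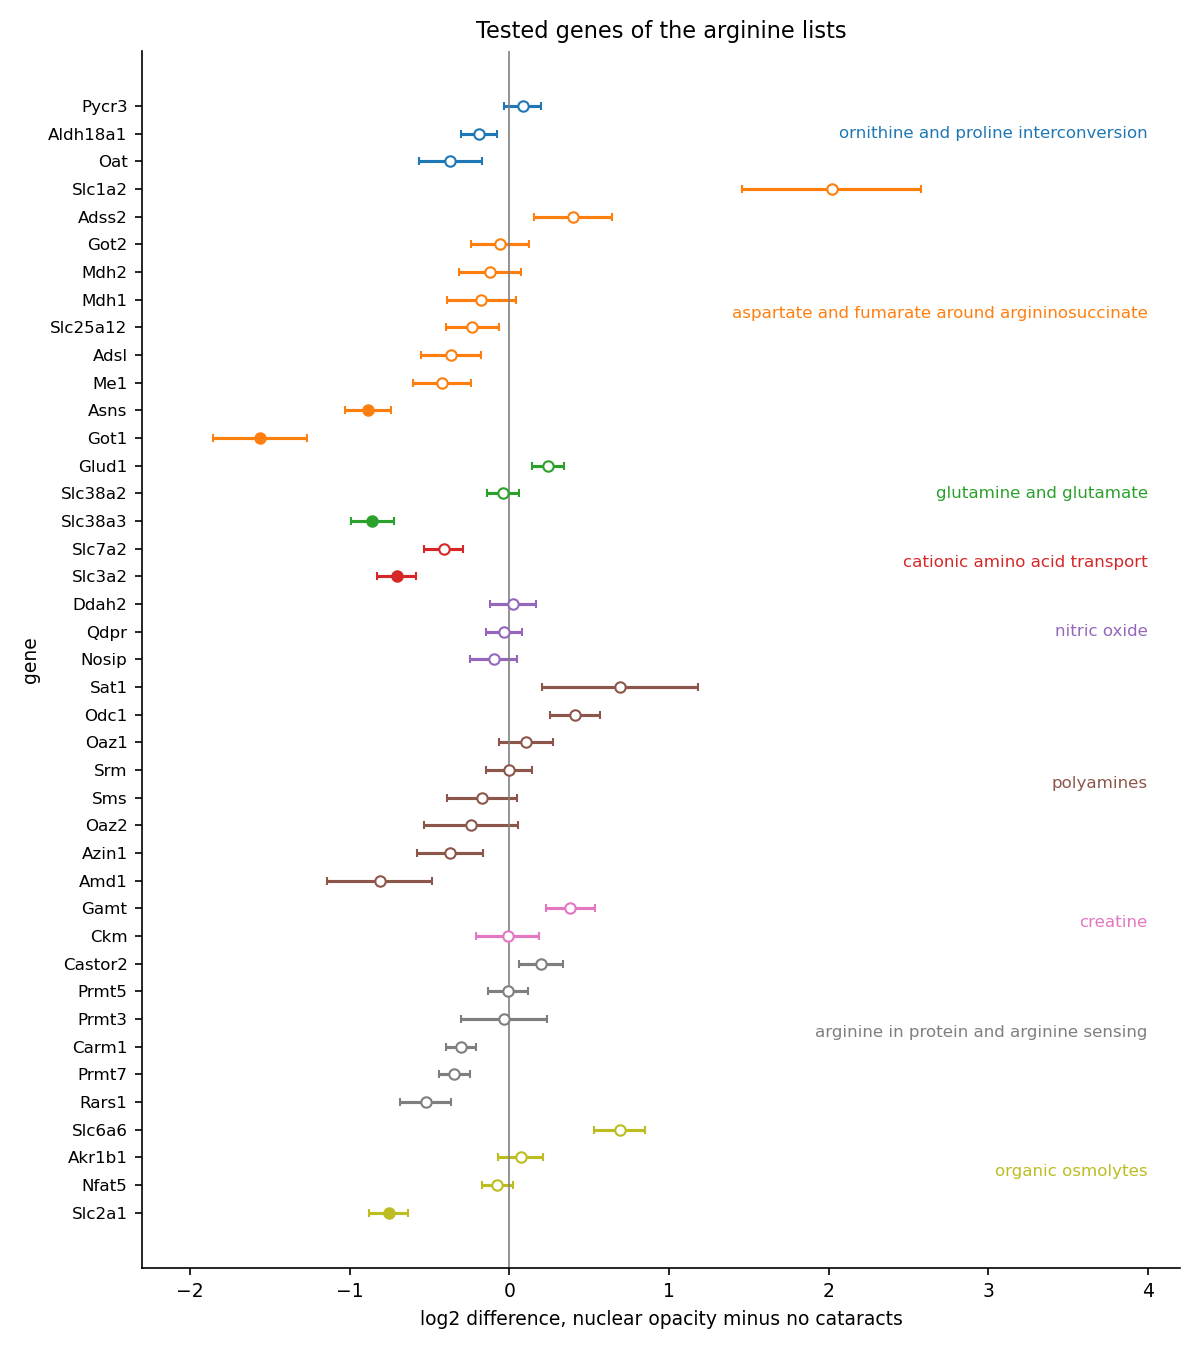
Log2 difference between nuclear opacity and no cataracts (horizontal axis) for the 41 tested genes of the lists (vertical axis), coloured by list, with bars of 1 standard error and filled points for adjusted p under 0.05 by limma. The 5 filled points (Got1, Asns, Slc38a3, Slc3a2 and Slc2a1) lie between -1.56 and -0.71, and Slc1a2 at 2.02 is open with the widest bar.

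The routes that use arginine had no called gene in any comparison. Over all tested genes the share called was 0% with cortical and with posterior subcapsular opacity. It was 6.1% with nuclear opacity, 0.0193% between nuclear and cortical opacity and 8.69% along age. With few tested genes in these routes, nothing is read from the absence of calls. Nitric oxide synthases Nos1, Nos2 and Nos3 were dim, with no log2 level above 3.11. The 3 tested genes of that list, Nosip, Qdpr and Ddah2, had nuclear differences of -0.10 ± 0.15, -0.03 ± 0.11 and 0.02 ± 0.14. Of the polyamine genes 8 were tested. Odc1, which turns ornithine into putrescine, had a difference of 0.41 ± 0.16 (adjusted p = 0.182), Amd1, which supplies the aminopropyl group, -0.81 ± 0.33 (adjusted p = 0.204), and Sat1, which acetylates polyamines, 0.69 ± 0.49 (adjusted p = 0.433).

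For proline and ornithine interconversion 3 genes were tested, with differences of -0.37 ± 0.20 for ornithine aminotransferase (Oat), -0.19 ± 0.11 for Aldh18a1 and 0.08 ± 0.12 for Pycr3. The creatine enzymes Gamt and Ckm had 0.38 ± 0.15 (adjusted p = 0.2) and -0.01 ± 0.20. Among genes that use arginine in protein, the arginyl-tRNA synthetase Rars1 had -0.52 ± 0.16 (adjusted p = 0.122), and the arginine methyltransferases Prmt7 and Carm1 had -0.35 ± 0.10 and -0.30 ± 0.09 (adjusted p = 0.104 and 0.121). Of the glutamine and glutamate list, Glud1 had 0.24 ± 0.10 and Slc38a2 -0.04 ± 0.10 beside Slc38a3. None of these passed.

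Along age 3 of the 41 genes were called, all lower (Got1, Slc7a2 and Slc2a1), beside 8.69% of all tested genes (3.66% higher, 5.03% lower). Nothing is read from so small a count. An unadjusted p under 0.05 by limma was found for 14 of the 41, beside 1336 of all tested genes. The 5 calls with nuclear opacity turned to 0 when the 2-, 4-, 14- or 18-week array was left out and to 1 (Got1) without the 8- or the 10-week array. The differences themselves kept their sign, and lay between -1.61 and -1.51 for Got1 and between -1.02 and -0.75 for Asns. They ranged from -1.01 to -0.71 for Slc38a3, from -0.81 to -0.60 for Slc3a2 and from -0.89 to -0.62 for Slc2a1. The 3 calls along age were 0 without the 2- or the 4-week array, 1 without the 12-week array and 6 without the 18-week array. With quantile normalization the nuclear calls of all genes were 189 higher and 237 lower in place of 105 and 210, and the age calls 309 and 278 in place of 189 and 260. The list genes then had 5 calls lower and 1 higher with nuclear opacity.

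The ciliary body and pigment cell markers given beside Slc7a1 were also lower in opaque lenses, as were these 5 genes, and their part in the differences was not tested.

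Likeness to Ass1 was measured as Pearson r over the 7 arrays, among 688 other tested genes with a log2 range of at least 1. The points share the arrays and the order of age, and r is a description. Some of the genes, such as Tlcd4, reached the floor of 5 only on the arrays where they were highest. The 8 highest values were those of Tlcd4 (0.98), Comtd1 (0.98), Thrsp (0.97), Stk35 (0.97), Zcchc24 (0.97), S100a10 (0.96), Scd (0.96) and Fn3k (0.95). Thrsp (Spot 14) and Scd, the stearoyl-CoA desaturase, are known from fat synthesis, S100a10 binds annexin A2 and Fn3k removes sugars from glycated proteins. Thrsp had a log2 level of 5.57 at 2 weeks and 8.87 at 18 weeks, a range of 3.30, and was still climbing where Ass1 had levelled off. The other 7 had ranges of 1.09 to 1.67.

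Genes opposite to Ass1 were more numerous, with 53 at r of -0.95 or less against 7 at 0.95 or more, Fn3k being just under 0.95 before rounding. Lower genes were also more numerous over all tested genes. With cortical opacity 666 were lower and 162 higher at an unadjusted p under 0.05 by limma. The imbalance is therefore not read as a trait of Ass1. The most opposite were Rps6kb2, a kinase of ribosomal protein S6, Ipo5, a nuclear import receptor, Sema3c, a secreted guidance factor, and Metap1, which removes the first methionine of proteins. All 4 had r of -0.99 or below. Sema3c had exactly the reverse order of ages, with a rank correlation of -1. Metap1 had the widest range of them, 1.98, with a log2 level of 8.52 at 2 weeks and 6.54 at 18 weeks.

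**Figure D4:**
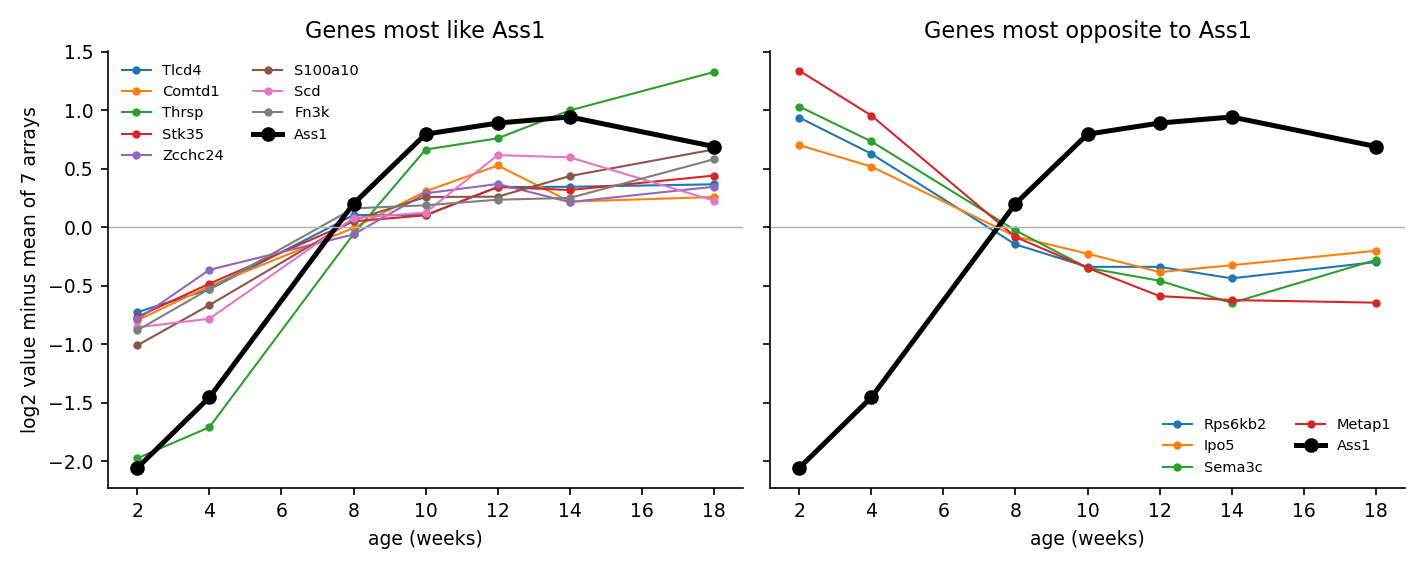
Log2 value minus the mean of the 7 arrays (vertical axis) against age in weeks (horizontal axis) for Ass1 (thick black) with the 8 genes most like it (left) and the 4 most opposite (right). Ass1 spans 3.0 and Thrsp 3.30, the other like genes span 1.09 to 1.67, and the opposite genes span 1.08 to 1.98.

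The genes most like Slc14a1 were Pitpnm3 (r = 0.99), Dnajc21 (0.97) and Hspb1 (0.97), the last a small heat shock protein. Pitpnm3 had a log2 level of 3.36 at 2 weeks and 5.13 at 18 weeks, with the same late step. Pitpnm3 and Dnajc21 reached 5 only on the 18-week array, so the floor favours this late step and nothing is read from it. Those most like Slc7a1 were Shisa2 (0.95), the bicarbonate cotransporter Slc4a4 (0.94) and Olfml2a (0.93). All 3 were highest at 2 weeks, with Shisa2 at 6.30 and Slc4a4 at 6.29 there and 4.97 and 4.53 at 18 weeks. Among the 5 genes, r was 0.85 for Ass1 with Slc14a1, -0.79 for Ass1 with Slc7a1 and -0.78 for Slc14a1 with Slc7a1. The rank correlations of these pairs were 0.72, -0.39 and -0.63. Asl had r of 0.89 with Slc7a1 and -0.73 with Ass1, with rank correlations of 0.73 and -0.47, and Arg2 had values between 0.02 and 0.17 with the others. The 4 ties of Asl and of Arg2 limit what their values can show.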

How the data were processed

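Total RNA of 7 whole-lens samples of ICR/Ihr rats was hybridized to 1 array each. Per the labels, the lenses came out of culture medium before grinding, while the methods describe lenses extracted from rats, so that whether they were cultured is not clear. The authors normalised the signals with the Robust Multi-array Average algorithm in R, and the deposited values are log2 signals of 36685 transcript clusters, used as deposited. Which arrays were normalised together is not given in the sources used here.

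Clusters were named with the annotation table of the array (18511 with 1 symbol, 575 with several, 17599 with none), and only those with 1 symbol were used. Their Entrez identifiers gave current symbols in the RefSeq table of GRCr8 for 18394 clusters, and 117 kept the symbol of the array. The cluster with the highest mean stood for a gene. Genes that reached log2 5 on at least 1 array were tested, after the floor of the study's methods.

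The limma package (version 3.58.1, R 4.3.3) fitted a mean for each stage over the 7 arrays, leaving 3 residual degrees of freedom, or 5.37 with the moderation of eBayes (constant prior). The age trend was a linear fit with 5 residual degrees of freedom. P-values were adjusted by Benjamini-Hochberg over all tested genes, with a threshold of 0.05. The 5 genes are among the tested genes of the fit where they reached the floor, and no p-value is given for them. The spread of a difference of 2 arrays is the moderated SD within stages times the root of 2, from the fit of all named genes for Asl and Arg2. It includes the age differences within stages. The fits were tested on simulated data.

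The members and the gene lists were chosen with earlier results of these data known. Named genes of a list are those that passed a comparison and the 3 with the largest nuclear difference. Named by likeness are the 8 most like and 4 most opposite to Ass1 and the 3 most like Slc14a1 and Slc7a1. Other genes of the lists, named as dim, were named after their values were seen. Alternatives covered the floor (6 or none), the mean of clusters, quantile normalization, median centring, a trended and robust prior, each array left out, log2 of age and rank correlation. The number of arrays limits the precision. Promoter sequences are from RefSeq, with an entry for 4 of 5 genes. Figures were drawn with matplotlib 3.10.9.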

Additional observations from a re-analysis of the deposited data

How the results depend on the processing

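Of 297 values of the 5 genes under the alternatives, 281 moved by less than the spread between arrays and 16 by more. The differences of Ass1, Slc14a1 and Slc7a1 from no cataracts kept their sign in every fit, while that of Arg2 with nuclear opacity was -0.08 with all arrays and 0.08 without the 14-week array. Leaving out an array took the age slope of Ass1 between 0.15 and 0.27. The list genes called with nuclear opacity (5) were 0 with no floor, where 0 of 18166 genes passed, and 0 to 5 when an array was left out. Those called along age (3) were 6 with a floor of 6, 0 with no floor, 5 with the trended and robust prior, and 0 to 6 when an array was left out. Of the 8 genes most like Ass1, 1 stayed among the top 8 with Spearman rho and 3 to 8 when an array was left out. Over all genes, the trended and robust prior called 12 with cortical, 93 with posterior subcapsular and 480 with nuclear opacity, and 3 between nuclear and cortical opacity. A floor of 6 called 12 and 28 with cortical and posterior subcapsular opacity. Quantile normalization called 18 with posterior subcapsular opacity, 2 between nuclear and cortical opacity and 587 along age in place of 449, and 112 passed along age with no floor. Median centring called 1 with posterior subcapsular opacity and 2 between nuclear and cortical opacity. The age fit on log2 of age called 620. Fits without an array have fewer residual degrees of freedom. For other differences the cause was not tested. With posterior subcapsular opacity the median of all tested genes was -0.13, and -0.00017 after quantile normalization. No paired analysis was possible because replicate numbers only order the ages within a stage and pair no samples. Signals under 5 are close to background, which limits what Asl, Arg2 and most arrays of Slc14a1 and Slc7a1 can show.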
